A study of Mus musculus with 10 samples.

Results

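The comparison of Tomato basal cells with control basal cells uses 4 of the 10 libraries of the series, which profiled 5 sorted populations of the mouse mammary gland by RNA sequencing. The 4 libraries were taken by their labelled population: 2 of Tomato basal cells (TBC), labelled as treated by luminal cell ablation, and 2 of basal cells (BC) with no treatment label, the second of them labelled wild type. Tomato is a red fluorescent protein used to mark cells and their descendants. The mouse line, the promoter behind the reporter or the ablation, the age of the mice, any agent given and whether the libraries came from separate mice are not stated in the labels, so p-values measure the spread between libraries, which may be technical. None of the counted genes was a Tomato reporter, and the reporter could not be checked. Treatment, Tomato sorting and, for 1 control library, the wild-type label go together with the groups, and their effects cannot be told apart. Luminal cells (LC) and Tomato luminal cells (TLC), 2 libraries each, serve below for 1 test of whether TBC over BC differed from TLC over LC. These changes are called the basal and the luminal response. The second LC library is also labelled wild type. Tomato sorting goes together with the luminal groups too, and its effect cannot be told apart there either.

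The mammary epithelium has an outer basal layer, whose contractile myoepithelial cells squeeze milk along the ducts, and an inner luminal layer, which holds hormone-sensing cells and the progenitors of milk-secreting cells. In the adult gland each layer is largely maintained by its own cells, and basal cells are known to be able to give luminal progeny after transplantation. Removal of luminal cells takes away the neighbours that basal cells normally touch. Cells that enter the cycle switch on E2F targets for DNA synthesis first and then the genes of mitosis. Mitotic genes are controlled by the DREAM and MuvB complexes at a promoter element called CHR, and by NF-Y at CCAAT boxes.

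Most cell cycle genes stood higher in TBC, with both TBC libraries above both BC libraries for 87 of 124 tested, and most immediate-early genes stood lower, with both TBC libraries below both BC libraries for 19 of 27. Basal keratins did not move together, and single genes such as Tnc, Fn1, Csn1s2a and H19 had fitted fold changes between the groups of more than 4. edgeR's quasi-likelihood test on all 10 libraries called none of the 19757 genes (0.0%) at an adjusted p under 0.05, and the smallest adjusted p was 0.181. At an unadjusted p under 0.05 it gave 902 genes higher in TBC (4.57%) and 823 lower (4.17%). DESeq2, run as an alternative, called 165 genes higher (0.835%) and 42 lower (0.213%). Of these 207, 206 had no overlap between the libraries of the groups, which comes from the same counts and is no separate check. Values in both TBC libraries were above both BC libraries for 3954 genes (20.0%) and below both for 4236 (21.4%). Counts of list members below are to be read beside these shares of all genes. The median log2 fold change of all genes, TBC over BC, was -0.03. Below, a gene is said to have risen or fallen only where a named test called it, values are CPM (counts scaled to library size and TMM factors) in BC 1, BC 2, TBC 1 and TBC 2, and errors of log2 fold changes are standard errors of the edgeR fit with 2 libraries per group.

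Stretches of 5 promoters from the cell cycle and interferon lists are shown first, to let the motif letters counted below be read, in capitals where a motif lies. They are 100 bases long and lie before the start of transcription from RefSeq on GRCm38.p6, on the strand of the gene. Counted from the start, the stretch runs from -172 to -73 in Mki67, from -100 to -1 in Top2a and from -119 to -20 in Mcm6. In Ifit1 it runs from -156 to -57, and in Isg15 from -136 to -37. The first pair, from 2 mitotic genes, carries the CHR motif (TTTGAA or TTCGAA on either strand). Mki67 lies at chr7:135716452-135716551, minus strand, and Top2a at chr11:99024190-99024289, minus strand.
Mki67: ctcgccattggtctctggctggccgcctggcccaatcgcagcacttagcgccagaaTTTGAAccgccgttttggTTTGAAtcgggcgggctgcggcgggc
Top2a: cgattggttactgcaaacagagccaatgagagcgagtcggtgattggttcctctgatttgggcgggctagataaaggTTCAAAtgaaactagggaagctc
Both stretches also hold CCAAT boxes, in lower case (ccaat or, on the other strand, attgg). The replication gene Mcm6 at chr1:128359725-128359824, minus strand, carries overlapping E2F motifs (TTTCCCGC, TTTGGCGC, TTTCGCGC or TTTGCCGC on either strand).
Mcm6: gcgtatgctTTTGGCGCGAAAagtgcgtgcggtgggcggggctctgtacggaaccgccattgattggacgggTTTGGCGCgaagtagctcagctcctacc
A pair of interferon-stimulated genes shows the core of the interferon-stimulated response element (AAANNGAAA on either strand), Ifit1 at chr19:34640733-34640832 on the plus strand and Isg15 at chr4:156200855-156200954 on the minus strand.
Ifit1: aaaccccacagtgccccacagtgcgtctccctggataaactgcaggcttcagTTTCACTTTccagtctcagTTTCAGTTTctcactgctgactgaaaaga
Isg15: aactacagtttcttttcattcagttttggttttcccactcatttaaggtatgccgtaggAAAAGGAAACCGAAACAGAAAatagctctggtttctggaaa

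Over windows from 250 bases before to 50 after the start, CHR letters stood in 29 of 36 spindle, kinetochore and chromosome genes with a window (80.6%) and in 15 of 23 mitotic kinases and cyclins (65.2%), against 21.7% of 27025 genes. CCAAT boxes stood in 69.4% and 82.6% of these lists and in 70.4% of replication genes, against 41.1% of all genes. E2F letters were held by 12 of 27 replication genes (44.4%), by 4.35% of mitotic kinases and cyclins and by 2.6% of all genes. For the interferon list the core letters were in 22 of 31 windows (71.0%), against 12.1% of all genes. Among 22 immediate-early genes the CRE letters TGACGTCA were in 13.6% of windows, against 2.03% of all genes, and the AP-1 letters TGAGTCA or TGACTCA were in none, against 5.95%. These shares describe letters and not bound sites.

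**Figure D1:**
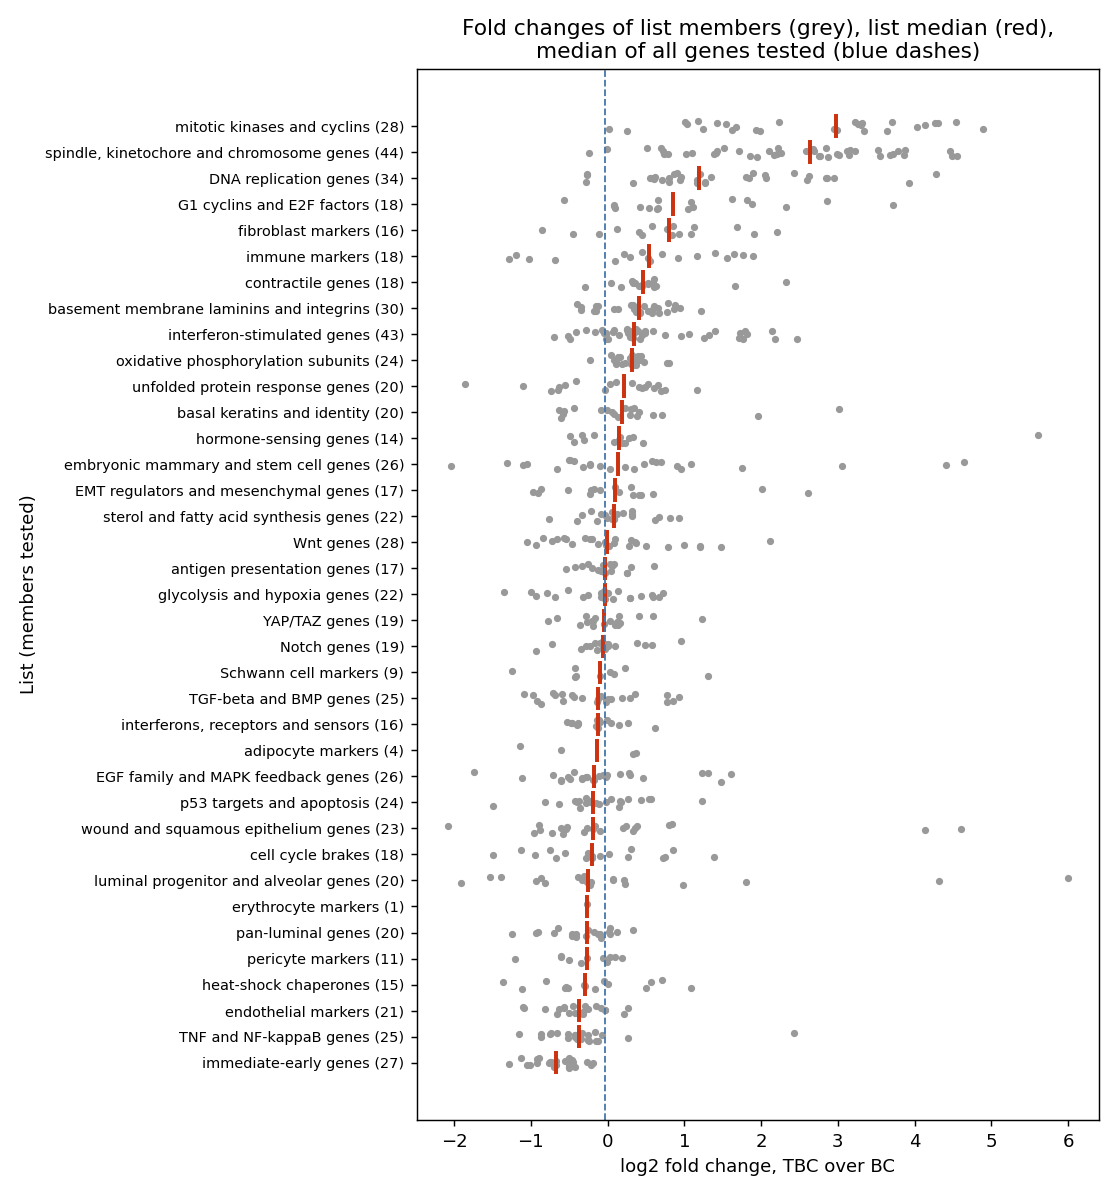
Log2 fold changes (TBC over BC, x axis) of the tested members of 37 gene lists (y axis, number of members in brackets); each grey point is 1 gene, red bars are list medians and the blue dashes mark the median of all genes. The mitotic lists have medians of 2.97 and 2.63 and lie farthest to the right, and the immediate-early list, at -0.67, lies farthest to the left.

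G1 regulators open the cycle. Of 18 tested G1 cyclins and E2F factors, 17 had a positive log2 fold change, with a median of 0.85. An unadjusted p under 0.05 was reached by 10 in the higher direction, against 4.57% of all genes, and by none in the lower. Without TBC 2, 11 were positive and 4 passed that threshold. DESeq2 called 4 as higher, against 0.835% of all genes: E2f8, Ccnd1, E2f7 and Foxm1. E2f8, an E2F family repressor made in S phase, had the smallest unadjusted p of all genes in the edgeR fit. It measured 0.980 and 1.02 CPM in the BC libraries and 7.58 and 18.9 CPM in the TBC libraries. Its log2 fold change was 3.73 ± 0.49 (edgeR adjusted p = 0.181, DESeq2 adjusted p = 1.62e-07). Ccnd1, the cyclin D1 gene through which growth signals start the cycle, measured 22.3 and 23.6 CPM in BC and 51.8 and 89.1 CPM in TBC. The BC pair was close together, and the lower TBC value was more than 2-fold above both. Its relative Ccnd2 measured 33.3 and 24.1 CPM in BC and 131 and 283 CPM in TBC, a log2 fold change of 2.86 ± 0.72. Ccnd3, by contrast, overlapped between the groups at 43.9, 47.9, 42.8 and 54.0 CPM.

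DNA replication genes came next in size. Of 34 tested, 31 were positive, with a median of 1.19. Past the unadjusted threshold were 22, all higher, against 4.57% of all genes, and DESeq2 called 10, against 0.835%. In 17 of the 34, both TBC libraries were above both BC libraries, against 20.0% of all genes. Without TBC 2 the median was 0.22, with 23 positive and 8 past the unadjusted threshold, and the median log2 ratio in the libraries numbered 44 to 48 was 0.12. Mcm2, a subunit of the helicase that unwinds origins, measured 4.90 and 6.29 CPM in BC and 16.3 and 65.2 CPM in TBC, a log2 fold change of 2.86 ± 0.55. Mcm6, another subunit, whose promoter is printed above, measured 43.7 and 45.6 CPM in BC and 54.0 and 160 CPM in TBC. Here the first TBC library lay just above the controls and the second far above. Clspn, an adaptor of the replication checkpoint, measured 0.392 and 0.850 CPM in BC and 3.79 and 22.6 CPM in TBC. Uhrf1, which guides maintenance methylation to replicated DNA, measured 3.14 and 2.04 CPM in BC and 7.74 and 66.6 CPM in TBC. The sliding clamp Pcna did not follow them, with 178, 88.7, 97.9 and 123 CPM and overlapping groups. Replication-dependent histone genes, whose symbols begin with Hist, were positive for 56 of 62 tested, with a median of 1.38. DESeq2 called 14 of them as higher, against 0.835% of all genes. Members of this family are near-identical copies, so counts of single histone genes are uncertain.

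The mitotic genes had the highest medians of the 37 lists. All 28 tested mitotic kinases and cyclins were positive, with a median of 2.97, and 25 were past the unadjusted threshold, against 4.57% of all genes. Of 44 spindle, kinetochore and chromosome genes, 42 were positive, with a median of 2.63, and 40 were past that threshold. In 38 of these 44 both TBC libraries were above both BC libraries, against 20.0% of all genes. DESeq2 called 14 and 29 members of these lists as higher, against 0.835% of all genes, and none as lower. Without TBC 2 the medians were 0.97 and 1.09, with 9 and 22 members past the unadjusted threshold. Mki67, which coats mitotic chromosomes and is the usual mark of cycling cells, measured 11.4 and 15.7 CPM in BC and 69.9 and 251 CPM in TBC. The log2 fold change was 3.55 ± 0.58, and DESeq2 gave an adjusted p of 3.31e-10. Top2a, the topoisomerase that untangles sister chromatids, measured 5.68 and 8.08 CPM in BC and 28.6 and 163 CPM in TBC. Both genes were lowest in the same control library and highest in the same Tomato library, with a wide gap between the TBC libraries.

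Ccnb1, the cyclin B1 gene that drives entry into mitosis with Cdk1, measured 0.588 and 0.850 CPM in BC and 4.10 and 24.8 CPM in TBC. Cdk1 itself measured 0.196 and 1.62 CPM in BC and 3.16 and 23.5 CPM in TBC. Ccna2, the cyclin A2 gene, measured 3.92 and 5.02 CPM in BC and 13.0 and 73.8 CPM in TBC. In these 3 genes neither group overlapped the other. Bub1, a kinase of the spindle checkpoint, measured 0.392 and 0.680 CPM in BC and 3.32 and 19.5 CPM in TBC. Cenpf, a kinetochore protein with the smallest DESeq2 adjusted p of all genes (1.89e-10), measured 0.784 and 2.21 CPM in BC and 16.4 and 58.3 CPM in TBC. Cenpe, the kinetochore motor that moves chromosomes to the spindle equator, measured 1.18 and 2.47 CPM in BC and 10.4 and 39.4 CPM in TBC. These levels are low in controls: 3 counts correspond to 0.588 and 0.255 CPM in the BC libraries and to 0.474 and 0.220 CPM in the TBC libraries. Pttg1, the securin gene, was the member of the mitotic kinase list with the smallest difference, at 9.41, 7.06, 6.31 and 10.04 CPM. Diaph3, a formin of the contractile ring, and Kntc1, a kinetochore checkpoint gene, are in none of the lists and were also among the 8 smallest DESeq2 adjusted p-values, with log2 fold changes of 3.14 ± 0.56 and 4.50 ± 0.97.

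**Figure D2:**
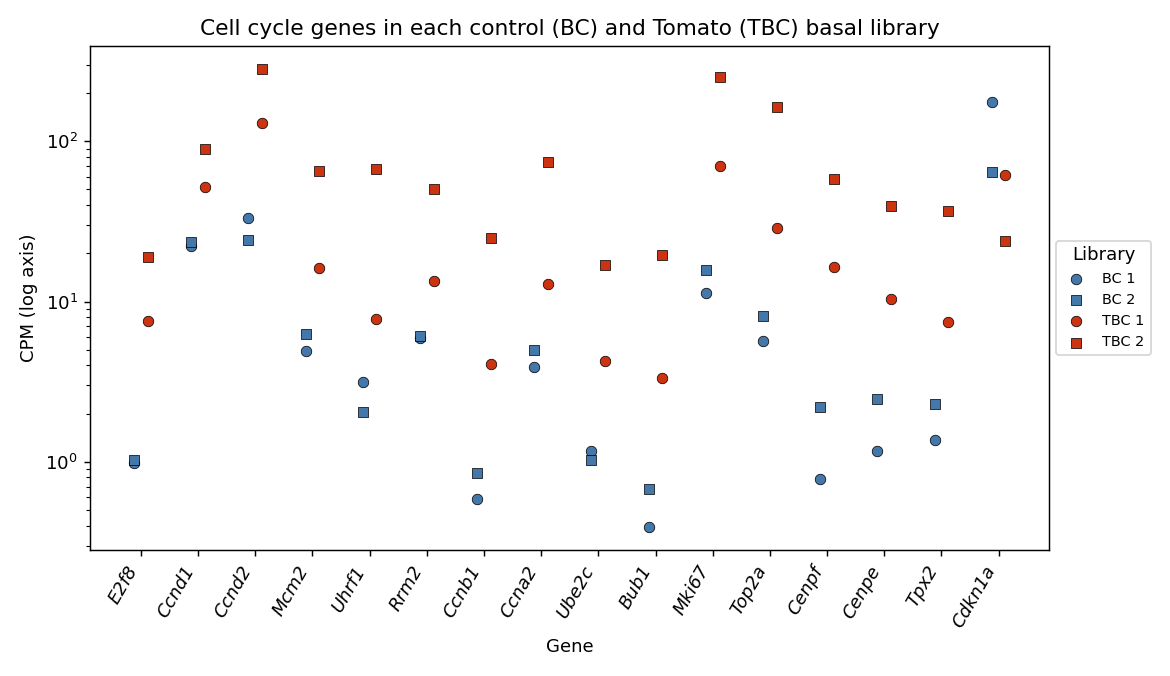
CPM on a log axis of 16 cell cycle genes in the BC (blue) and TBC (red) libraries, with circles for library 1 and squares for library 2. For every gene but Cdkn1a both red points lie above both blue points, and the TBC 2 square lies above the TBC 1 circle; Cdkn1a runs the other way.

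Taken over the 4 cell cycle lists, 118 of 124 tested members were positive, 97 were past the unadjusted threshold in the higher direction against 4.57% of all genes, none was past it in the lower direction, and 57 were called higher by DESeq2 against 0.835% of all genes. In 87 of the 124 (against 20.0% of all genes) the libraries did not overlap. Library numbers in the titles run from 44 to 48 and from 80 to 84, each run with 1 library of every population. The median log2 ratio of TBC to BC over these members was 0.70 in the first run and 2.49 in the second, and the ratio was larger in the second run for 117 of 124. Without TBC 2 the median was 0.70 and 43 members were past the unadjusted threshold, and without TBC 1 it was 2.47, with 110 past it and 71 called by edgeR. In the luminal populations the median for the same members was 2.27, TLC over LC, and for none did the basal and luminal responses differ past the threshold of edgeR, which called 180 of 19757 genes (0.911%) in this test of the difference.

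Brakes on the cycle were mixed. Among 18 tested, 11 were negative, the median was -0.20 and 5 were past the unadjusted threshold in the lower direction (against 4.17% of all genes), 1 in the higher. Cdkn1a, the p21 inhibitor of cyclin-dependent kinases, measured 176 and 64.5 CPM in BC and 61.9 and 23.8 CPM in TBC. The groups were apart by a narrow margin, since BC 2 was just above TBC 1, and DESeq2 did not call the gene. Gadd45b, a stress-induced gene, measured 258 and 196 CPM in BC and 130 and 78.5 CPM in TBC, and was called lower by DESeq2 (adjusted p = 0.0422). Rbl1, the p107 relative of the retinoblastoma protein, ran against the list at 12.2, 11.1, 14.8 and 45 CPM. Of 24 tested p53 targets and apoptosis genes, Cdkn1a included, 15 were negative and 9 positive, with a median of -0.19, which was 0.00 without TBC 2. Zmat3, a p53 target that binds RNA, was called higher by DESeq2 (adjusted p = 0.0077), at 13.7 and 21.5 CPM in BC and 43.4 and 40.5 CPM in TBC.

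Immediate-early genes are transcription factors and feedback genes induced within minutes of growth signals or stress. All 27 tested members had a negative log2 fold change, with a median of -0.67. In 19 of 27 both TBC libraries were below both BC libraries, against 21.4% of all genes, 11 were past the unadjusted threshold, and DESeq2 called 4 as lower: Maff, Fosb, Junb and Gadd45b. Maff, a small Maf factor, measured 321 and 234 CPM in BC and 128 and 101 CPM in TBC, a log2 fold change of -1.28 ± 0.29. Fosb, a partner of Jun in AP-1, measured 3316 and 3768 CPM in BC and 2081 and 1447 CPM in TBC. Junb measured 1280 and 1335 CPM in BC and 812 and 723 CPM in TBC. In these 3 genes both TBC libraries were below both BC libraries. Fos and Egr1 were not called by either tool. Fos measured 5480, 4986, 4427 and 3378 CPM, and Egr1 measured 4272, 3749, 3248 and 2419 CPM. Without TBC 2 the list median was -0.47 and 3 members were past the unadjusted threshold. TNF and NF-kappaB genes had 23 of 25 members negative with a median of -0.37, 2 of them past the unadjusted threshold and none called by DESeq2, and the median was -0.61 without TBC 1 and -0.25 without TBC 2. Tnf itself measured 11.8 and 7.82 CPM in BC and 7.10 and 3.74 CPM in TBC, without passing either test.

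Interferon-stimulated genes, which make up an antiviral programme, stood high in 1 TBC library. TBC 1 was the highest of the 4 libraries for 34 of 43 tested genes. The list median was 0.35, 4 members were past the unadjusted threshold, all higher, against 4.57% of all genes. Ifi44 measured 4.31 and 2.81 CPM in BC and 32.7 and 6.30 CPM in TBC, and was the 1 member DESeq2 called as higher (adjusted p = 0.0159). Ifit1, which binds viral RNA, measured 6.08 and 5.53 CPM in BC and 32.7 and 5.86 CPM in TBC. Isg15, a ubiquitin-like modifier, measured 2.55 and 1.96 CPM in BC and 9.16 and 1.83 CPM in TBC. In both of these genes, whose promoters are printed above, TBC 1 was high and TBC 2 was within or below the range of the controls. Without TBC 1 the list median turned to -0.25. Genes of interferons, their receptors and sensors had a median of -0.13, with none of 16 past the unadjusted threshold in either direction.

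**Figure D3:**
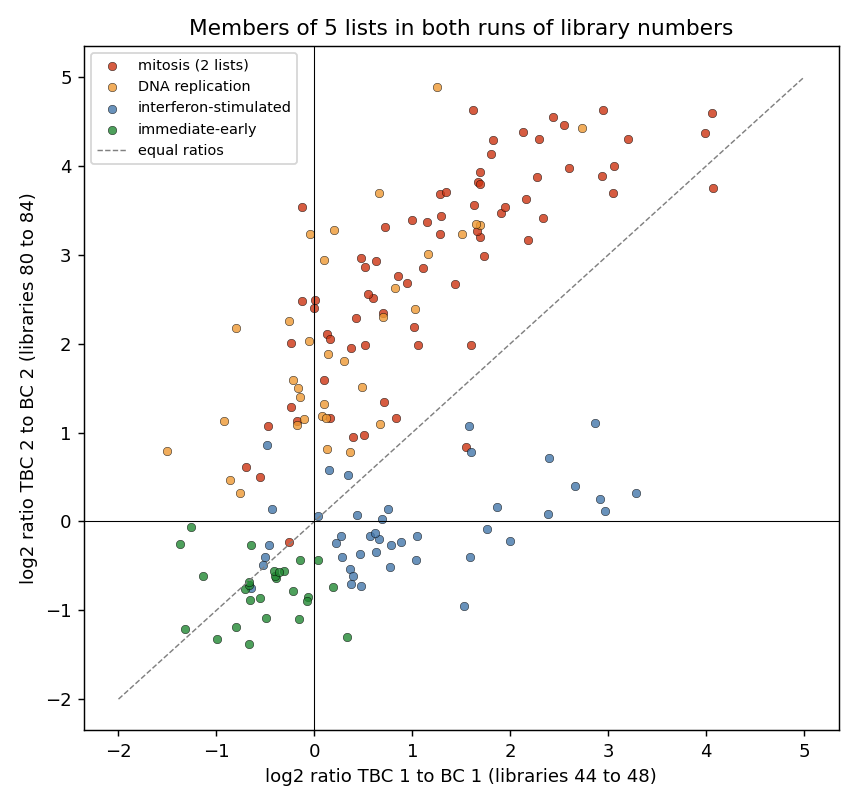
Log2 ratio of TBC to BC for members of 5 lists, in the libraries numbered 44 to 48 (x axis) and 80 to 84 (y axis); each point is 1 gene and the dashed line marks equal ratios. Mitotic and replication genes lie mostly above the line, interferon-stimulated genes mostly below it, and immediate-early genes lie below 0 on the y axis.

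Basal identity genes had no shared direction. Of 20 basal keratin and identity genes, 13 were positive, with a median of 0.18, and 1 was past the unadjusted threshold in each direction. Both TBC libraries were above both BC libraries for 6 and below both for 4, against 20.0% and 21.4% of all genes, and overlapped with them for 10. Krt5, a keratin that defines basal cells, measured 768 and 1402 CPM in BC and 1176 and 991 CPM in TBC, a log2 fold change of 0.00 ± 0.45. Krt14, its partner, measured 2344 and 2216 CPM in BC and 1724 and 1330 CPM in TBC, a log2 fold change of -0.58 ± 0.50. Trp63, the master factor of stratified and basal epithelium, measured 493 and 540 CPM in BC and 613 and 649 CPM in TBC. Markers of the labelled cell type were thus abundant in all 4 libraries. Krt15, a keratin of less differentiated basal cells in several epithelia, was called higher by DESeq2 (adjusted p = 0.00464), at 26.9 and 89.5 CPM in BC and 211 and 247 CPM in TBC. Contractile genes were positive for 17 of 18, with a median of 0.46. Past the unadjusted threshold as higher were 3, against 4.57% of all genes, and DESeq2 called none. Acta2, smooth muscle actin, measured 1510 and 2684 CPM in BC and 3643 and 2742 CPM in TBC. Myocd, the coactivator of smooth muscle genes, measured 1.96 and 2.98 CPM in BC and 14.8 and 10.8 CPM in TBC, a log2 fold change of 2.33 ± 0.72. Over the contractile list, the median ratio was 1.10 (log2) in the libraries numbered 44 to 48 and -0.04 in those numbered 80 to 84, and the list median was 0.23 without BC 1, 0.21 without TBC 1, 0.86 without BC 2 and 0.70 without TBC 2.

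The change of basal keratins in TBC over BC differed from that in TLC over LC. In TLC over LC, a response of the cells and an effect of Tomato sorting cannot be told apart. For Krt14 the log2 fold change was 4.55 in TLC over LC and -0.58 in TBC over BC, a difference of -5.13 (edgeR adjusted p = 0.0163). Krt5 gave -3.93 (edgeR adjusted p = 0.0293) and Trp63 -2.43 (edgeR adjusted p = 0.0303). Of the hormone receptors, Esr1 measured 41.6 and 57.1 CPM in BC and 38.2 and 40.5 CPM in TBC, while in TLC over LC its log2 fold change was -2.17, a difference of 1.84 (edgeR adjusted p = 0.0327). Pgr, the progesterone receptor, gave a difference of 2.31 (edgeR adjusted p = 0.0332). With upper-quartile factors the Pgr call was lost (edgeR adjusted p = 0.0515). When 1 of the 8 libraries was left out at a time, the keratin and Esr1 calls held in 3 of 8 fits, the Trp63 call in 2 and the Pgr call in 3. Signs held in all 8 fits for each of these 5 genes. Adjusted p-values reached 0.118 for Krt5, without TBC 2, and 0.0918 for Krt14, without the same library.

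Luminal genes were not higher as a class. Of 20 pan-luminal genes, 15 were negative, with a median of -0.27, and 1 was past the unadjusted threshold, Elf3. Elf3, an epithelial ETS factor, measured 64.5 and 77.0 CPM in BC and 31.7 and 28.3 CPM in TBC, and was called lower by DESeq2 (adjusted p = 0.000316). Krt8 measured 417, 317, 361 and 241 CPM and Krt18 measured 383, 246, 249 and 140 CPM, both with overlapping groups. Hormone-sensing genes had a median of 0.15, with none of 14 past the unadjusted threshold. Progenitor and alveolar genes split, with 8 positive and 12 negative of 20 tested and a median of -0.25. Past the unadjusted threshold were 2 as higher and 4 as lower, against 4.57% and 4.17% of all genes. The list median was 0.02 without BC 1, -0.43 without BC 2, -0.09 without TBC 1 and -0.36 without TBC 2. The iron-binding milk protein Ltf measured 367 and 154 CPM in BC and 65.8 and 72.9 CPM in TBC, and DESeq2 called it lower (adjusted p = 0.00037). Kit, a receptor of luminal progenitors, measured 97.0 and 55.6 CPM in BC and 21.2 and 31.0 CPM in TBC. Csn1s2a, a casein, had the highest log2 fold change of the genes named by rule, at 5.99 ± 1.24, and was called higher by DESeq2 (adjusted p = 0.00389), with 0.784 and 0.0850 CPM in BC and 15.5 and 25.7 CPM in TBC. Csn2, beta-casein, measured 6.86 and 0.510 CPM in BC and 39.5 and 81.4 CPM in TBC, with neither test passed. The BC libraries held 5 reads of Csn1s2a in all, so the size of that fold is poorly set. Csn3 did not share the direction, at 167, 41.6, 65.5 and 111 CPM. The summed CPM of the 20 pan-luminal genes, a measure of luminal RNA in the sorted basal cells, was 2305 and 1978 in BC and 2068 and 1548 in TBC, and its part in these differences was not tested.

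Some genes of the extracellular matrix stood far apart between the groups. Tnc, tenascin C, a matrix protein of wounds and embryonic mesenchyme, measured 11.4 and 7.99 CPM in BC and 362 and 103 CPM in TBC. Its log2 fold change was 4.61 ± 0.82, and DESeq2 called it higher (adjusted p = 1.57e-05). Fn1, fibronectin, measured 15.9 and 24.3 CPM in BC and 179 and 71.0 CPM in TBC, with a DESeq2 adjusted p of 3.82e-07. In both genes TBC 1 was the higher of the Tomato libraries, the reverse of the mitotic genes. The list of wound and squamous epithelium genes did not share the direction of Tnc. Of its 23 tested members 9 were positive and 14 negative, with a median of -0.19. Past the unadjusted threshold was 1 in each direction, against 4.57% of all genes as higher and 4.17% as lower. The uncharacterised gene 8030451A03Rik overlaps Tnc on chromosome 4 (63979854 to 64149924, against 63959785 to 64047015 for Tnc), measured 0.980, 0.340, 19.9 and 4.33 CPM, and cannot be told apart from Tnc where they overlap, since the strand setting of the counts is unknown. Basement membrane genes, laminins, type IV collagens and their receptors, were positive for 23 of 30, with a median of 0.42. In 17 of 30 both TBC libraries were above both BC libraries, against 20.0% of all genes. Past the unadjusted threshold as higher were 6, against 4.57% of all genes, and DESeq2 called Dag1. Without BC 1 the median was 0.26 and 2 were past that threshold in the higher direction, with 12 past it without BC 2 and 1 without TBC 2. Dag1, the laminin receptor dystroglycan, measured 452 and 633 CPM in BC and 943 and 1051 CPM in TBC. Col4a1 measured 310 and 690 CPM in BC and 1109 and 1220 CPM in TBC, and Lamb2 ran the other way, at 292, 393, 237 and 282 CPM. Adamts9 and Vcan were named after their values were seen. Adamts9, a protease that cuts versican, measured 112 and 103 CPM in BC and 243 and 385 CPM in TBC, and Vcan, versican, measured 141 and 99.1 CPM in BC and 611 and 1288 CPM in TBC. DESeq2 called both as higher.

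Fibroblast markers were mostly positive, but their summed level overlapped between the groups. Of 16 tested, 13 were positive, with a median of 0.81. Past the unadjusted threshold were 3 in the higher direction and 1 in the lower, against 4.57% and 4.17% of all genes. DESeq2 called none. Both TBC libraries were above both BC libraries for 7 and below both for 1, against 20.0% and 21.4% of all genes, and 8 overlapped. Col3a1 measured 20.4 and 24.4 CPM in BC and 74.2 and 133 CPM in TBC, and Col1a1 measured 20.2 and 34.6 CPM in BC and 78.5 and 130 CPM in TBC. Pdgfra, the receptor that defines these cells, ran the other way, at 69.8 and 51.4 CPM in BC and 29.2 and 37.5 CPM in TBC, and Dcn overlapped, at 119, 85.3, 46.1 and 175 CPM. No tested marker was at 0 in any of the 4 libraries, and the summed level ran from 1939 to 3120 CPM in BC and from 3046 to 4378 CPM in TBC. Whether fibroblast RNA takes part in the values of Tnc, Fn1 and Vcan was not tested. In bulk samples fewer cells of a type and less RNA per cell cannot be told apart.

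**Figure D4:**
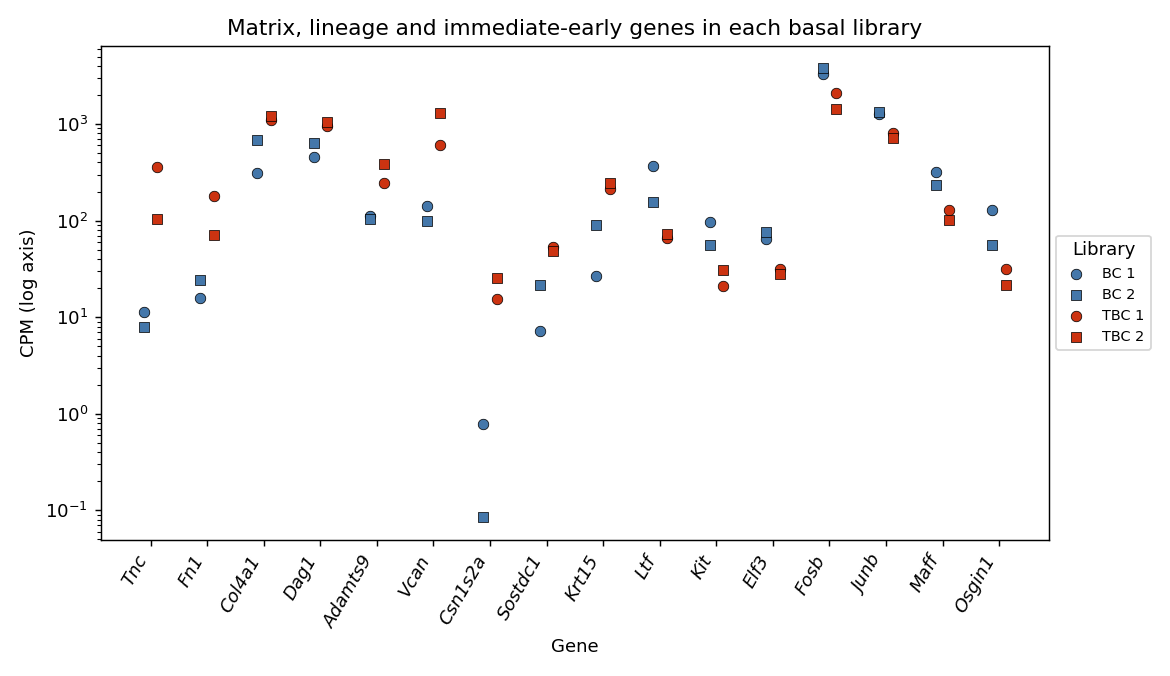
CPM on a log axis of 16 matrix, milk protein, lineage and immediate-early genes in the BC (blue) and TBC (red) libraries, with circles for library 1 and squares for library 2. The first 9 genes, from Tnc to Krt15, have both TBC points above both BC points, and the last 7, from Ltf to Osgin1, have both below.

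Embryonic mammary and stem cell genes had a median of 0.13, with 14 of 26 positive, but single members stood far apart. H19, an imprinted fetal RNA on chromosome 7 (142575529 to 142578143), measured 0.196 and 0.510 CPM in BC and 16.6 and 4.54 CPM in TBC, and DESeq2 called it higher (adjusted p = 2.15e-05). Sox11, a transcription factor of embryonic tissues, measured 0 and 0.765 CPM in BC and 18.0 and 4.10 CPM in TBC and was called by neither test. Both had more CPM in TBC 1 than in TBC 2. Sostdc1, a secreted inhibitor of BMP and Wnt signals, measured 7.25 and 21.8 CPM in BC and 52.7 and 48 CPM in TBC, with a DESeq2 adjusted p of 0.00602. Lgr5, a receptor for R-spondins, measured 423, 592, 382 and 259 CPM, with no call. Wnt pathway genes had a median of 0.00, with 4 past the unadjusted threshold as higher and 2 as lower. Wnt6, a ligand, measured 2.74 and 8.33 CPM in BC and 19.1 and 30.9 CPM in TBC (DESeq2 adjusted p = 0.0389), and the feedback inhibitor Nkd2 measured 24.3 and 27.4 CPM in BC and 62.0 and 81.4 CPM in TBC. Erbb4, a receptor of neuregulins, was called lower by DESeq2 (adjusted p = 0.0497), at 9.41 and 4.93 CPM in BC and 2.21 and 1.98 CPM in TBC, while its ligand Nrg1 measured 81.3 and 43.5 CPM in BC and 174 and 118 CPM in TBC. Among regulators of epithelial-mesenchymal transition the median was 0.09, and Snai2, a factor of basal cells, measured 91.7, 136, 183 and 161 CPM without passing either test.

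Other genes stood lower in TBC and were among the 12 lowest log2 fold changes named by rule. Muc4, a membrane mucin of luminal surfaces, measured 19.8 and 16.2 CPM in BC and 2.84 and 4.25 CPM in TBC. Scin, an actin-severing protein, measured 16.1 and 7.74 CPM in BC and 3.16 and 2.71 CPM in TBC, and DESeq2 called it lower (adjusted p = 0.00127). Osgin1, an oxidative stress gene, measured 129 and 55.7 CPM in BC and 31.7 and 21.3 CPM in TBC, and DESeq2 called it lower (adjusted p = 0.00587). Plet1, a surface protein of progenitor cells, and its antisense neighbour Plet1os had log2 fold changes of -1.69 ± 0.57 and -1.75 ± 0.49, and as an overlapping pair they cannot be told apart. In Muc4 and Scin the BC libraries were both above the TBC libraries by more than 2-fold.

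The oxidative phosphorylation, glycolysis and hypoxia, heat-shock and unfolded protein response lists gave no DESeq2 call. Oxidative phosphorylation subunits were positive for 23 of 24, with a median of 0.31, 2 of them past the unadjusted threshold, and without TBC 2 the median was 0.16. Cox5a, a subunit of complex IV, measured 20.8 and 23.7 CPM in BC and 32.5 and 43.8 CPM in TBC. Glycolysis and hypoxia genes had a median of -0.04, which was 0.00 without BC 1 and -0.01 without TBC 2. Past the unadjusted threshold were 4 of 22 as lower and 1 as higher, against 4.17% and 4.57% of all genes. Vegfa, the main angiogenic factor, was among the lower ones, at 292 and 135 CPM in BC and 130 and 92.9 CPM in TBC. Its BC 2 value was just above that of TBC 1. Heat-shock chaperones had a median of -0.29, with Hspa1a at 216 and 173 CPM in BC and 105 and 47.4 CPM in TBC. That median was -0.02 without BC 1, -0.05 without TBC 2 and -0.61 without TBC 1. The unfolded protein response split, with the chaperone gene Hyou1 at 76.6, 70.7, 112 and 126 CPM and the stress factor Ddit3 at 49.6, 36.2, 25.1 and 15.0 CPM.

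The libraries held 5381351 and 12286209 assigned counts in BC and 6730120 and 13270498 in TBC, within the range of 2757773 to 13685674 of the series. The shallower library of each group was the one numbered 44 to 48. Libraries of 1 group differed by far more than counting error. Endothelial markers were higher in BC 1 than in the 3 other basal libraries, with a summed level of 786 CPM against 242 in BC 2 and 387 and 400 in TBC, and immune markers summed to 77.2 and 31.5 CPM in BC and 87.1 and 46.3 CPM in TBC. Their part in the results was not tested.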

How the data were processed

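Total RNA of sorted mouse mammary cells was sequenced per the labels' protocols (Qiagen RNeasy Micro, NuGen Ovation Solo, Illumina NovaSeq). The deposited values are whole-number counts of reads per Ensembl gene, which the authors made with STAR and HTSeq on GRCm38 (mm10), per the submitters' processing notes. Neither notes nor labels give tool versions, the annotation release or whether strand was used. The 5 summary rows of HTSeq were removed, and 49412 of 49671 identifiers were matched to symbols in GENCODE M21.

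Genes passing filterByExpr (19757) were fitted with edgeR 4.0.16 (R 4.3.3) on all 10 libraries: TMM factors, a robust quasi-likelihood fit with 1 coefficient per population and 5 residual degrees of freedom, Benjamini-Hochberg adjustment and a threshold of 0.05. Standard errors are the log2 fold change divided by the square root of F. Fold changes and CPM were computed from the counts. Libraries of BC and of TBC share a group by their labels, and replicate numbers follow the order of the records and were not treated as pairs. The same fit tested whether TBC over BC differed from TLC over LC. Counts of libraries that do not overlap, medians and ratios within a run of library numbers are descriptions. The depth of 5381351 to 13270498 counts sets 3 counts at 0.220 to 0.588 CPM, and this floor covers counting error only.

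The comparison, its members and the 37 gene lists (795 genes, 751 tested) were chosen with earlier results of these data known. By rule, 173 genes were named, some of them in none of the lists. These are the 12 genes with the highest and the 12 with the lowest log2 fold change among those with an unadjusted p under 0.05, at least 10 CPM in the higher group and no overlap between libraries, up to 4 members per list with the smallest p, 14 lineage and cycle markers, and the 8 smallest DESeq2 adjusted p-values without overlap. Other list members are named where their list is described. Promoter windows are from RefSeq (GRCm38.p6), for 27025 genes.

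Alternatives were RLE and upper-quartile factors, DESeq2 1.42.0 (3831 genes without an adjusted p), limma-voom 3.58.1, no filter, a filter of 5 CPM in 2 libraries, the run of library numbers as a term, only the 4 basal libraries, and leaving out each library. The fits were also run on simulated counts with known fold changes. Those counts had the same set spread between libraries for every gene. Such a run checks the fitting steps and cannot show how often the tests err in these libraries.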

Additional observations from a re-analysis of the deposited data

Results flagged for a closer look

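The difference between the basal response (TBC over BC) and the luminal response (TLC over LC) was past the threshold of edgeR for 11 of the genes named by rule, on the log2 scale. Of the basal genes, Krt14 gave -5.13, Krt5 -3.93, Dkk3 -2.58, a secreted Wnt modulator, and Trp63 -2.43. Krt16, a keratin of wounded epithelium, gave -2.84. Among secreted factors, Pthlh, which signals to the embryonic mammary mesenchyme, gave -4.98 and Bmp7 -2.26. Pthlh was higher in TBC too, with 13.7 and 19.7 CPM in BC and 32.5 and 38.9 CPM in TBC, while in TLC over LC its log2 fold change was 6.06. The hormone-sensing genes had the opposite sign, with 2.58 for Areg, a ligand of EGFR, 2.31 for Pgr and 1.84 for Esr1. Egr3, an immediate-early gene, gave -1.45, from -0.70 in TBC over BC and 0.75 in TLC over LC. The immediate-early list as a whole had medians of -0.67 in TBC over BC and -0.76 in TLC over LC, with 1 of 27 members called. With each of the 8 libraries left out in turn, Areg and Pthlh were called in all 8 fits, Dkk3 in 7, Bmp7 in 4, Krt14, Krt5, Esr1 and Pgr in 3, Trp63 in 2, Egr3 in 1 and Krt16 in none. Of these 11, Pgr was also not called with upper-quartile factors (edgeR adjusted p = 0.0515). The highest adjusted p was 0.0361 for Areg and 0.0218 for Pthlh, and for Dkk3 it was 0.0564, without TBC 2. Adamts9, named after its values were seen, gave 1.85 (edgeR adjusted p = 0.0329) and was called in 2 of the 8 fits.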

How the results depend on the processing

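The count of genes called was 0 by edgeR, with 902 higher and 823 lower at an unadjusted p under 0.05, and stayed 0 with RLE or upper-quartile factors, limma-voom, a filter of 5 CPM in 2 libraries and only the 4 basal libraries. DESeq2 called 207 (165 higher, 42 lower), and without a low-count filter edgeR called 398 (286 higher, 112 lower), 186 of them shared with DESeq2. With 1 library left out the counts ran from 0 to 148, and from 0 to 148 for genes higher in TBC. The 148, all higher, came without TBC 1, and 114 of them were shared with DESeq2. The 3 came without BC 2 and the 2 without TBC 2. The lone library of a group is then assumed to vary like the other groups.

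The labels do not say that the runs of library numbers pair the libraries. The correlation of replicate 1 minus replicate 2 between BC and TBC was 0.234 across genes, and over the 10 pairs of populations it ran from -0.012 to 0.421. With the run as a replicate block, edgeR called 33 genes (22 higher, 11 lower), 29 of them shared with DESeq2.

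The 180 genes whose basal and luminal responses differed became 505 by DESeq2, 725 without a filter, 425 with the replicate block and 45 to 268 with 1 of the 8 libraries left out. Of the 173 genes named by rule, 159 kept the sign of their fold change without BC 1 and 170 or 171 without each other library. Of the 162 that passed the stricter filter, 162 kept it. Many of these genes were picked by a small p or by lack of overlap in these same libraries. Their signs were likely to hold, so these counts are no independent check. Upper-quartile factors moved the median of all genes to -0.12, from -0.03. Medians of 28 to 32 of the 37 lists kept their sign with 1 library left out, and 34 to 37 under the other alternatives. Chi-square per degree of freedom between libraries of 1 population was 17.4 to 30.5, and depth limits genes with few counts in BC, such as Csn1s2a.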
